A study of Mus musculus with 189 samples.

Results

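The SMYD family was followed with 5 quantitative PCR assays, Smyd1, Smyd2, Smyd3, Smyd4 and Smyd5, chosen by gene name from the 192 assays of the series. All 5 passed the authors' quality control, which 36 assays did not. Single mature unfertilized eggs (MII oocytes), zygotes, blastomeres, small groups of blastomeres and whole embryos were measured after reverse transcription and preamplification. The females were superovulated F1 mice of C57BL/6 and DBA/2, embryos came from matings to C57BL6 males, and no group carried a mutation or a treatment. The stages held 11 MII oocytes, 14 zygotes, 21 samples of 2-cell embryos, 7 of 3-cell embryos, 12 of 4-cell embryos, 27 of 8-cell embryos, 26 blastomere samples of 2 embryos at the 16-cell stage and 50 blastomere samples of 7 embryos at the 32-cell stage. These samples were averaged to 58 oocyte or embryo values, 1 of them the mean of 11 blastomeres of 2-cell embryos that the labels do not name, and these values were the replicates of the stage tests. Tests on whole embryos also used 6 further whole embryos of the 16- and 32-cell stages. In addition, 1 inner cell mass group, 1 trophectoderm group and 10 samples of embryonic stem cell (ESC) RNA were described.

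SMYD proteins are lysine methyltransferases in which the catalytic SET domain is split by a MYND zinc finger. They methylate histones and also other proteins, and the family is best known from striated muscle. Smyd1 is a heart and skeletal muscle factor needed for the formation of cardiac muscle. Smyd2 methylates cytoplasmic and nuclear proteins such as the tumour suppressor p53, and Smyd3 methylates the kinase Map3k2. Smyd4 has been linked to heart and muscle development. Smyd5, the most distant family member, has been linked to methylation of histone H4 and to silencing of repeats in ESCs. At the 2-cell stage the mouse embryo degrades much of the RNA stored in the oocyte and starts transcription of its own genome, and by the 32-cell stage blastomeres are being sorted into inner cell mass and trophectoderm.

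The 250 bases before the start of transcription are shown because the members differ in how many CG dinucleotides they hold there. A relation of the CG counts to the stage levels was not tested. RefSeq sequences of the GRCm38.p6 build were matched by symbol for 4 of the 5 genes, with no entry for Smyd3. The region of Smyd1 was chr6:71262282-71262531 on the minus strand, that of Smyd2 chr1:189922292-189922541 on the minus strand, that of Smyd4 chr11:75348183-75348432 on the plus strand and that of Smyd5 chr6:85431726-85431975 on the plus strand. Each sequence is written 5′ to 3′ along the gene, with every CG dinucleotide in capitals.
Smyd1: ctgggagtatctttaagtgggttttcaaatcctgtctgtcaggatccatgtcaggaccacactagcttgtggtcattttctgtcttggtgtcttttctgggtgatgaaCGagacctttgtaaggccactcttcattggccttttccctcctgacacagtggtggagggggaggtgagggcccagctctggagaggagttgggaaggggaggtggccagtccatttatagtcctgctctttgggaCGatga
Smyd2: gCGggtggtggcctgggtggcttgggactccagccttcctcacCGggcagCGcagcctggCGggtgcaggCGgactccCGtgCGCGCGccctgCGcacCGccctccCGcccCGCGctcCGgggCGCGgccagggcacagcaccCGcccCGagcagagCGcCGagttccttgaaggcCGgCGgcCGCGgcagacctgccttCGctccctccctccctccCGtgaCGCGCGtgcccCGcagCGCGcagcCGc
Smyd4: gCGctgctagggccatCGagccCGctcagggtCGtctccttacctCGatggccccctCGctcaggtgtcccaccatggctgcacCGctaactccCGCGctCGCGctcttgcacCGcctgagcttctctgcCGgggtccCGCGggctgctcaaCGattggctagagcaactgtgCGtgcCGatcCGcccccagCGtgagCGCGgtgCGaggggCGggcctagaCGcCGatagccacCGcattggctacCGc
Smyd5: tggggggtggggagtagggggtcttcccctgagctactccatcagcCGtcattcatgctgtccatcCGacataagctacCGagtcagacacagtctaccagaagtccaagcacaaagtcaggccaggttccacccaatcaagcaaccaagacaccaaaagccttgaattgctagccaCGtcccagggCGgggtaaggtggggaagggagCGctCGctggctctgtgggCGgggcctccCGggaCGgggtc
The Smyd1 region held 2 CG dinucleotides, a count that 81.2% of the 32851 promoter regions of the same length reached or exceeded. The Smyd2 region held 34 and the Smyd4 region 28, reached by 3.53% and 7.61% of promoter regions. The Smyd5 region held 10, against a median of 6 over all regions. The letters TATAAA, searched on both strands, were found in the Smyd1 region and in 12.4% of all regions, and not in the regions of Smyd2, Smyd4 and Smyd5. In the Smyd1 region they lay on the strand opposite to the gene, and read TTTATA in the sequence above. These are descriptions of the letters in the window and not of any factor that binds there.

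Levels were expressed as 30 minus the cycle threshold (Ct), minus the mean of the same quantity over the control genes Hnrnpr, Ssu72 and Ube2e1, which gives a log2 scale per sample. A Ct of 30 marks a gene that was not detected, so that the level of an undetected gene depends on nothing but how early the control genes came up. That level averaged −17.08 in MII oocytes and −11.7 at the 32-cell stage for Smyd1. A difference between 2 groups in which a gene was mostly undetected therefore measures the control genes and not the gene. The median control Ct over samples lay between 12.9 in MII oocytes and 17.7 at the 32-cell stage, so that less template was measured in late samples. Primer efficiencies are not known, and levels were compared between stages but not between genes. Labels were checked by marker genes: all 3 oocyte markers (Dazl, ZP3 and Brdt) were detected in every MII oocyte, and their mean lay between 2.75 and 3.28 per oocyte and between −9.58 and −7.76 per embryo at the 32-cell stage. Stages were compared with limma on the 58 oocyte or embryo means, and a gene was called at a Benjamini-Hochberg adjusted p below 0.05 over all genes that passed the quality control.

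Transcripts of 4 family members were stored in the oocyte. Smyd2, Smyd3, Smyd4 and Smyd5 were detected in all 11 MII oocytes and all 14 zygotes, and Smyd1 in none of either. The level of Smyd2 was −2.18 ± 0.44 (SD, n = 11) in oocytes and −2.41 ± 0.20 (SD, n = 14) in zygotes. For Smyd3 it was −0.14 ± 0.74 and −0.44 ± 0.65, for Smyd4 −3.64 ± 0.37 and −3.86 ± 0.42, and for Smyd5 −2.77 ± 0.45 and −2.97 ± 0.63, with the same numbers of oocytes and zygotes. None of the 5 genes was called between MII oocytes and zygotes, with differences of at most 0.30 in size and 0 of 5 at an unadjusted limma p below 0.05. Among all genes tested, 1.92% were called between these stages. The 95% intervals reached from −2.21 to 1.78 for Smyd4 and from −0.85 to 0.45 for Smyd5.

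**Figure D1:**
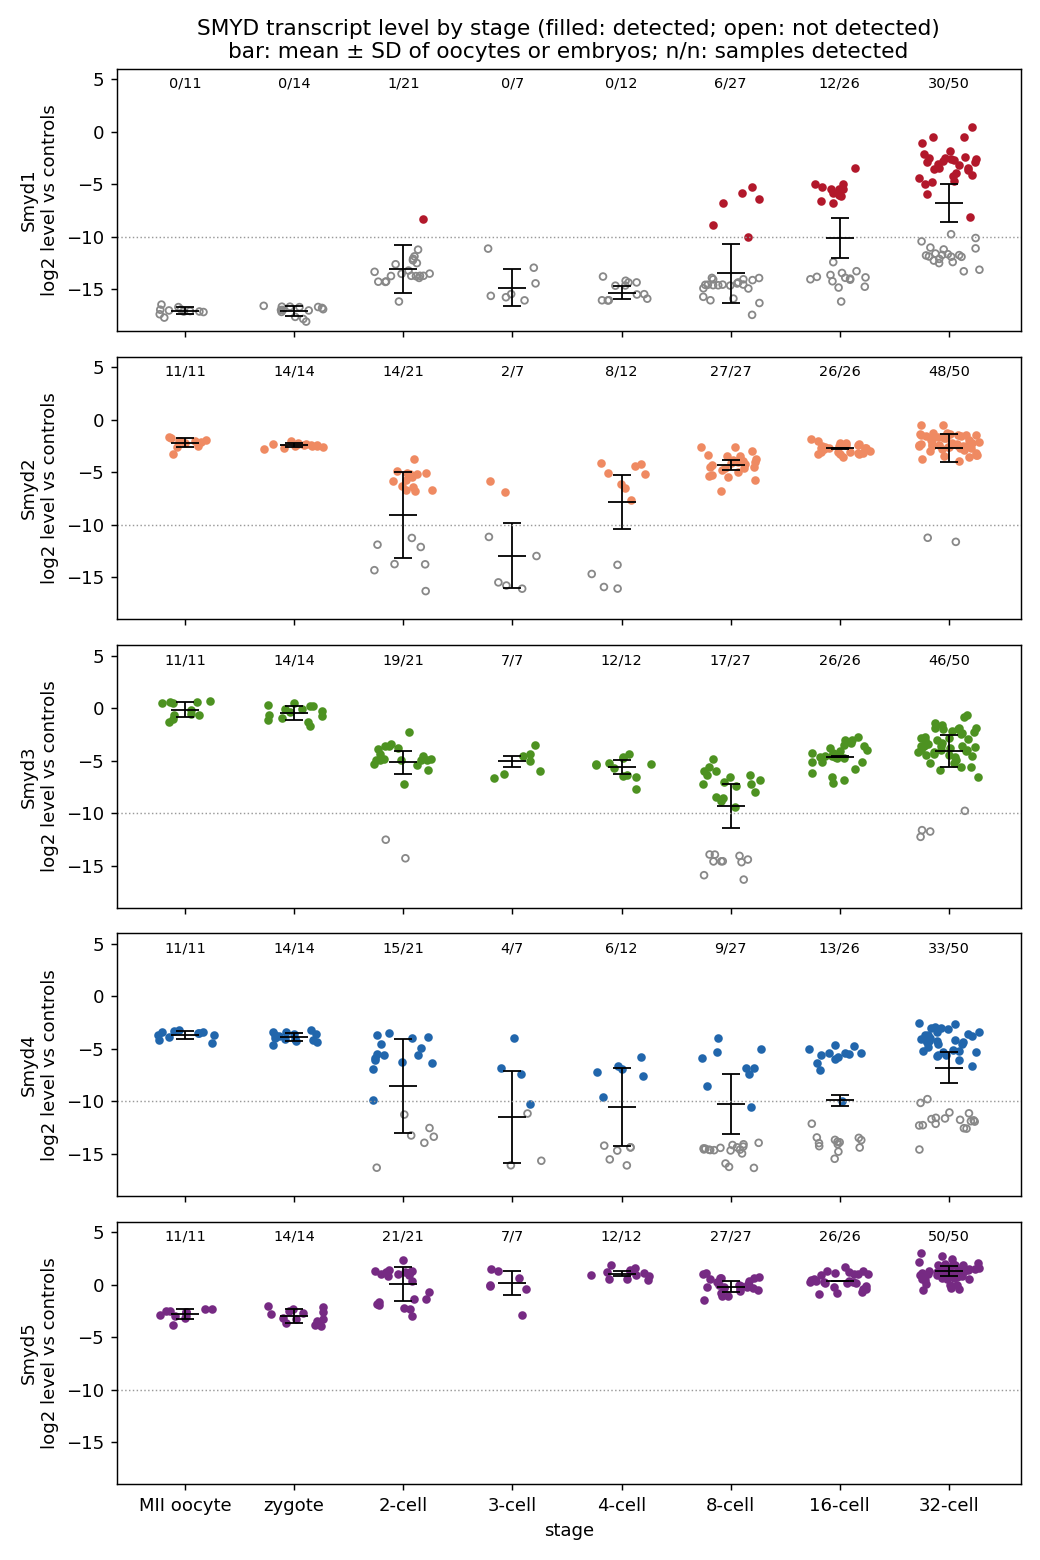
Level of each SMYD gene (log2, relative to 3 control genes) in every sample of the 8 stages. Filled points were detected and open points were not, black bars give the mean ± SD over oocytes or embryos, the dotted line is the expression threshold of −10, and the numbers above give detected over measured samples. Smyd5 is filled throughout, Smyd1 is open in MII oocytes and zygotes, and the open points of all genes lie higher in late stages.

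Between zygote and 2-cell stage the stored members separated. Smyd2, Smyd3 and Smyd4 fell, and Smyd5 rose. The share of all genes called at this step was 68.6%, and all 5 members were called, with Smyd1 nearly undetected on both sides, so that a call as such was common to most assayed genes. Smyd2 fell by 6.63 (SE 0.84, limma adjusted p = 8.4e-10) and was detected in 14 of the 21 samples of 2-cell embryos, after all 14 zygotes. Its 8 embryo means ran from −16.31 through a median of −7.81 to −4.85. The lowest mean, −16.31, belonged to a whole embryo in which Smyd2 was not detected, whereas the highest was still below every zygote, whose lowest value was −2.77. Smyd3 fell by 4.70 (SE 0.49, limma adjusted p = 3.24e-12) but stayed detected in 19 of 21 samples, with embryo means between −7.27 and −3.46 against −1.69 to 0.45 in zygotes. Smyd4 fell by 4.71 (SE 1.09, limma adjusted p = 0.00014) and was detected in 15 of 21 samples. With the 3 whole embryos left out the Smyd4 difference was −2.42 (adjusted p = 0.00783). Where the assay detected Smyd4 in a 2-cell sample, the median level was −5.58, against −3.87 in zygotes. Setting undetected genes to the highest Ct at which the assay was ever detected, in place of 30, gave smaller differences of −3.94 for Smyd2, −4.46 for Smyd3 and −3.92 for Smyd4, all still called. That setting was chosen after seeing the data, and the choice of value for an undetected gene moved the Smyd2 fall by more than 1.5 times.

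Smyd5 rose by 3.04 (SE 0.35, limma adjusted p = 9.12e-11) from −2.97 ± 0.63 (SD, n = 14) in zygotes to 0.07 ± 1.66 (SD, n = 8) in 2-cell embryos, and was the only family member detected in every sample of the 8 stages. The 21 samples of 2-cell embryos were split at the largest gap between their sorted Smyd5 values, and any set of values has such a gap. In 9 of them Smyd5 lay between −3.02 and −0.69, and only −3.02, −2.33 and −2.26 were inside the zygote range of −3.91 to −2.02. In the other 12 it lay between 0.37 and 2.33, which overlaps the range of 0.50 to 1.86 in the 12 samples of 4-cell embryos. The highest values of this upper set, 1.40 and 2.33, also lay apart. Both sister blastomeres of 1 embryo were in the lower set, at −1.88 and −1.69, and both sisters of another in the upper set, at 1.03 and 1.31. The 3 whole embryos were in the upper set with 0.92, 0.84 and 1.40. The 9 lower samples all came from the series of 18 blastomere samples, 3 of whose titles name no blastomere. That series entered the fit as 5 values, 1 of them the mean of 11 blastomeres whose embryo is not named. The mean over these 5 values was −0.52, against 1.05 over the whole embryos (difference 1.57, SE 0.60, limma adjusted p = 0.0615). Without the control genes the difference from zygotes was 0.04 (adjusted p = 0.948), when the median of all genes moved by −3.33. That comparison took single blastomeres and whole embryos of the 2-cell stage together, and among whole embryos alone the difference without control genes was 2.43 (adjusted p = 2.58e-07). The division of the 2-cell samples was seen in the values and not given by labels, and no test was made of it. The 11 single blastomeres whose embryo is not named held members of both sets and entered the fit as 1 mean of −0.02.

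Smyd1 had a nominal difference of 4.00 in the same fit (SE 0.68, limma adjusted p = 8.27e-07), but it was undetected in all 14 zygotes and detected in 1 of the 21 samples of 2-cell embryos, a whole embryo with a level of −8.31. Apart from that embryo only the values of undetected samples moved, and with all values below −10 set to −10 the difference was 0.21 (limma adjusted p = 0.484). The called difference of −2.28 from the 2- to the 4-cell stage (limma adjusted p = 0.0306) was of the same kind, since none of the 12 samples of 4-cell embryos held detectable Smyd1, and it was −0.21 (adjusted p = 0.643) with the common floor. No other member was called from the 2- to the 4-cell stage, so that 1 of 5 stood against 32.7% of all genes. Smyd5 differed by 0.99 (SE 0.43, limma adjusted p = 0.0726), Smyd2 by 1.23 (SE 1.02) and Smyd4 by −1.98 (SE 1.33). Embryos of this stage held both blastomeres with and blastomeres without detected Smyd2 or Smyd4. In the 9 blastomere samples of 4-cell embryos, Smyd2 was detected in 5 and Smyd4 in 4.

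The 3-cell embryos, a short stage in which only one blastomere has yet divided again, were represented by 3 embryos and 7 samples. Smyd2 was detected in 2 of the 7, at −6.89 and −5.79, and its mean of −12.92 ± 3.06 (SD, n = 3) was the lowest of any stage. It was called below the 2-cell stage with a difference of −3.87 (SE 1.28, limma adjusted p = 0.047), a step with 8.97% of genes called, and below the 4-cell stage with a difference of 5.10 (SE 1.34, limma adjusted p = 0.0193), a step with 3.85%. The first call was lost without 3-cell embryo 2 (adjusted p = 0.251) or embryo 3 (adjusted p = 0.637), and the second without embryo 3 (adjusted p = 0.153). Both were lost when undetected genes took the highest detected Ct of the assay (adjusted p = 0.0803 and 0.117). Smyd3 was detected in all 7 samples and Smyd5 likewise, with means of −5.06 ± 0.51 and 0.15 ± 1.12 (SD, n = 3).

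At the 8-cell stage the members went separate ways again. Smyd2 rose by 3.53 (SE 1.05, limma adjusted p = 0.00441) from the 4-cell stage and was detected in all 27 samples, with embryo means between −5.01 and −3.62. Smyd3 fell by 3.77 (SE 0.62, limma adjusted p = 8.31e-07) to −9.34 ± 2.11 (SD, n = 7), its lowest stage, and was detected in 17 of 27 samples after 12 of 12. Among the detected samples alone, the median of Smyd3 was −7.04, after −5.41 at the 4-cell stage. Smyd5 fell by 1.25 (SE 0.44, limma adjusted p = 0.0171), from 1.06 ± 0.26 (SD, n = 6) to −0.19 ± 0.51 (SD, n = 7). The call of Smyd5 was lost with median normalization (adjusted p = 0.113), without the whole embryos (adjusted p = 0.148) and with single cells alone (adjusted p = 0.0716). Smyd4 showed a difference of 0.30 (SE 1.37) and was detected in 9 of 27 samples. With undetected genes at the highest detected Ct, the Smyd2 rise was 2.02 and the Smyd3 difference −2.50, both still called. Without the whole embryos the Smyd2 rise was 5.52 and the Smyd3 difference −4.92. Among whole embryos, on the normalized scale, they were 1.51 (limma adjusted p = 0.392) and −2.20 (limma adjusted p = 0.00411). In a joint fit with dissociated embryos, neither difference of whole embryos was called (limma adjusted p = 0.602 and 0.0863). In the fit of all stages, 3 of the 5 genes were called, against 49.4% of all genes.

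Smyd1 was detected in 6 of the 27 samples of 8-cell embryos: 1 whole embryo at −8.87 and 5 blastomeres between −10.01 and −5.27. These blastomeres came from 3 of the 4 dissociated embryos. Its difference from the 4-cell stage of 1.83 (SE 0.85) was not called (limma adjusted p = 0.0695). From the 8- to the 16-cell stage Smyd1 differed by 3.38 (SE 1.23, limma adjusted p = 0.0351) and Smyd3 rose by 4.73 (SE 0.89, limma adjusted p = 5.73e-05), 2 of 5 members against 28.2% of all genes. Smyd3 returned to detection in all 26 samples, and its 2 embryo means were −4.64 and −4.58. Smyd1 was detected in 12 of 26 samples, and its 2 embryo means were −11.46 and −8.80. Without the embryo with the higher mean, 16-cell embryo 5, the Smyd1 difference was 2.05 and was not called (adjusted p = 0.535). It was 1.49 with values below −10 set to −10 and 2.14 with undetected genes at the highest detected Ct, both called, and 1.51 in the deposited normalized table (adjusted p = 0.311). Without the control genes it was 2.02 (adjusted p = 0.327), and the Smyd3 difference was then 3.36 (adjusted p = 0.0822). In the deposited normalized table the Smyd3 difference was 2.85 and was called. Smyd2, Smyd4 and Smyd5 differed by 1.56, 0.33 and 0.57 with limma adjusted p of 0.535, 0.960 and 0.589.

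No member was called from the 16- to the 32-cell stage, where 10.9% of all genes were called, and 1 of 5 (Smyd1) had an unadjusted limma p below 0.05. Smyd1 differed by 3.31 (SE 1.23, limma adjusted p = 0.0694) and was detected in 30 of 50 samples, with 7 embryo means between −9.75 and −4.57. Without 16-cell embryo 4 the difference was 1.98 (adjusted p = 0.615). With a common floor at −10 the difference was 1.86 and was called (adjusted p = 0.00551), and with undetected genes at the highest detected Ct it was 2.73 (adjusted p = 0.00167). The common floor takes out the rise of undetected values that goes with less template. Among single cells with detected Smyd1, its median Ct was 21.5 in 16-cell embryos against 21.3 in 32-cell embryos, while the control genes of these cells had median Ct values of 16.0 and 17.7, so that a later Ct of the control genes went with the higher normalized level of Smyd1 in detected cells.

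From MII oocytes to the embryos of the 16- and 32-cell stages together, 4 of the 5 members were called, against 84.6% of all genes. Smyd5 rose by 3.86 (SE 0.36, limma adjusted p = 3.49e-14), Smyd3 fell by 4.07 (SE 0.50, limma adjusted p = 1.63e-10) and Smyd4 fell by 3.83 (SE 1.11, limma adjusted p = 0.0015). The Smyd5 difference became −0.44 without control genes (adjusted p = 0.443), when the median of all genes moved by −4.65, and 0.30 in the deposited normalized table (adjusted p = 0.367), when the median moved by −3.91. The late samples of these comparisons were single blastomeres or small groups, whereas the content of a whole unit, as 30 minus Ct, was 14.3 ± 0.402 (SD, n = 11) for Smyd5 in MII oocytes, 19.8 ± 0.763 (SD, n = 3) in whole 16-cell embryos and 17.7 ± 0.395 (SD, n = 3) in whole 32-cell embryos. For Smyd2 the difference was −0.53 (SE 0.85, limma adjusted p = 0.558), with a 95% interval from −2.24 to 1.18. It was −4.83 without control genes (adjusted p = 1.95e-06) and −4.09 in the deposited normalized table (adjusted p = 3.73e-05), both called. Without control genes Smyd3 and Smyd4 differed by −8.37 and −8.13. Smyd1 was detected in none of the 11 oocytes and in 42 of the 76 late samples, and no fold change is given against a group without detection.

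The order of the stage levels differed among the members. Smyd2 was highest in MII oocytes, followed by zygotes, the 32-, 16-, 8-, 4-, 2- and 3-cell stages, and among these neighbours only the 8- against the 4-cell and the 2- against the 3-cell stage differed. Zygotes and 32-cell embryos differed by −0.29 (SE 0.88, limma adjusted p = 0.764), although 81.4% of all genes were called between them. Smyd3 ran from MII oocytes and zygotes through the 32-, 16-, 3-, 2- and 4-cell stages to the 8-cell stage, with called neighbours at zygote against 32-cell (difference −3.66, SE 0.51, limma adjusted p = 6.65e-09) and 4- against 8-cell. The 16- and 3-cell stages, between which 43.6% of all genes were called, were neighbours for Smyd3 and for Smyd5 and were called for neither. Smyd4 ran from MII oocytes and zygotes through the 32-, 2-, 16-, 8-, 4- and 3-cell stages, and only zygote against 32-cell differed (−2.92, SE 1.14, limma adjusted p = 0.0169). Its neighbours 2- and 32-cell, with 67.3% of genes called, and 2- and 16-cell, with 47.4%, were not called. For Smyd5 the order ran from the 32-cell through the 4-, 16-, 3-, 2- and 8-cell stages to MII oocytes and zygotes, and only the 8-cell stage against MII oocytes was called (difference 2.58, SE 0.39, limma adjusted p = 3.47e-08, with 82.7% of genes called). Smyd5 was not called between the 4- and the 32-cell stage (66.0% of genes called), the 4- and the 16-cell stage (44.2% called) or the 2- and the 8-cell stage (63.5% called). Smyd1 was ordered by detection alone, with the 32-cell above the 16-cell and the 16-cell above the 8-cell stage.

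Whole embryos measured in 1 reaction gave the content per embryo, as 30 minus Ct without control genes, which does not depend on division into blastomeres. In such bulk samples fewer expressing cells and less RNA per cell cannot be told apart. The content of Smyd2 was 14.7 ± 0.392 (SD, n = 14) in zygotes, and the 3 whole 2-cell embryos had Ct values of 18.86, 22.74 and not detected. The fall was 8.52 (SE 0.97, limma adjusted p = 1.18e-09), and the difference was −5.46 without whole embryo 1 and −11.02 without whole embryo 2, both called. Smyd4 was detected in 1 of 3 whole 2-cell embryos, at a Ct of 20.69, and its mean content fell from 13.2 ± 0.479 (SD, n = 14) in zygotes to 3.10 ± 5.37 (SD, n = 3), with a limma adjusted p of 6.51e-09. Smyd3 fell by 6.20 (SE 0.53) to Ct values of 18.67, 19.11 and 20.96, and Smyd5 rose by 2.43 (SE 0.36) to 12.77, 12.98 and 14.66, with limma adjusted p of 1.9e-12 and 2.58e-07. The median of all genes moved by −1.79 at this step and 77.6% of them were called. The nominal difference of Smyd1 (2.67, limma adjusted p = 0.0184) rested on the 1 embryo in which it was detected and was 0.0 without it.

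None of the 5 genes was called per whole embryo from the 2- to the 4-cell stage (0.641% of all genes called, 2 of 5 members at an unadjusted limma p below 0.05) or from the 4- to the 8-cell stage (25.6% called, 1 of 5). Smyd2 had Ct values of 18.03, 20.66 and 21.51 at the 4-cell stage, and the 8-cell values were 16.83, 17.03 and 18.94, so the groups overlapped by 1 embryo. From the 8- to the 16-cell stage all 5 were higher, but so were most genes: 80.1% were called and the median of all genes was 2.79 higher. The control genes themselves went from a mean content of 16.8 to 19.3. Of the 5 members Smyd1 had the largest difference, 10.27 (SE 1.31, limma adjusted p = 2.74e-08), from 1 of 3 embryos detected to 3 of 3 with Ct values of 16.17, 16.72 and 18.18. The size of that difference depends on the Ct of 30 given to the 8-cell embryos without detection. A difference of that size was not particular to Smyd1, since the SET-domain gene Mll1 was higher by 11.03 at this step (limma adjusted p = 1.9e-08). The size for Mll1 likewise depends on the Ct of 30 wherever it was undetected. Smyd2, Smyd3, Smyd4 and Smyd5 were higher by 4.73, 4.38, 4.46 and 3.46. On the normalized scale Smyd1 (7.85), Smyd3 (1.96) and Smyd5 (1.05) stayed called and Smyd2 (adjusted p = 0.165) and Smyd4 (adjusted p = 0.372) did not. In the joint normalized fit with dissociated embryos the same differences were called for Smyd1 (adjusted p = 0.000947) but not for Smyd3 (adjusted p = 0.176) or Smyd5 (adjusted p = 0.303). The Smyd4 call was also lost without 8-cell whole embryo 3 (difference 2.93, adjusted p = 0.122). At the 32-cell stage Smyd5 fell by 2.14 (SE 0.47, limma adjusted p = 0.000143), a step at which the median of all genes moved by −2.46 and 65.4% were called, and on the normalized scale its difference was −0.23. Smyd1 kept Ct values of 15.66, 16.08 and 16.27 in the 3 whole 32-cell embryos.

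**Figure D2:**
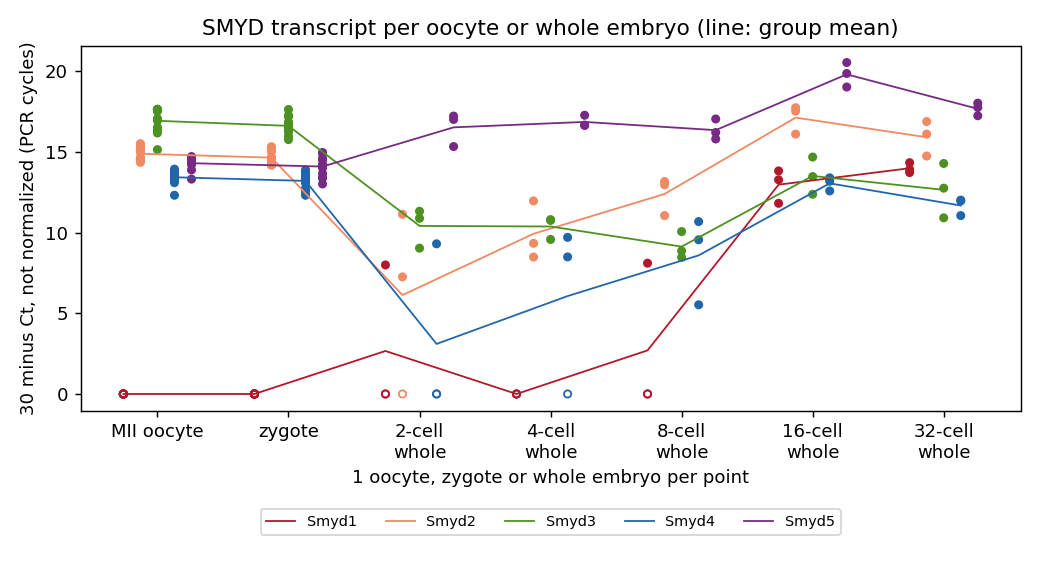
Content of each SMYD transcript as 30 minus Ct, not normalized, in single MII oocytes and zygotes and in 3 whole embryos of each later stage, with lines through group means and open points at 0 where a gene was not detected. Smyd2, Smyd3 and Smyd4 drop at the 2-cell stage, Smyd5 rises, and Smyd1 reaches 13.0 at the 16-cell stage.

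Whole and dissociated embryos of the same stage could be compared on the normalized scale. At the 2-cell stage the difference of Smyd4 was −6.10, lower in the 3 whole embryos (SE 1.85, limma adjusted p = 0.0202), since it was detected in 1 of 3 of them but in 14 of 18 blastomere samples, with control Ct values of 13.7 to 16.1 in whole embryos and 15.7 to 18.8 in blastomere samples. This was 1 of 5 members, with 19.23% of all genes called. The call was lost without whole embryo 1 (adjusted p = 0.180) or whole embryo 3 (adjusted p = 0.0673). All blastomere samples of this stage carry another series name in their labels than the whole embryos, so that series and dissociation cannot be told apart. The titles of 3 of the 18 name no blastomere, and their cell number is not given. Among these, the samples with Smyd4 at −3.90 and −5.61 each entered the fit as an embryo value of its own on the dissociated side. At the 4-, 8- and 16-cell stages no member was called (1.92%, 0.00% and 0.641% of all genes called). At an unadjusted limma p below 0.05 stood Smyd3 at the 8-cell stage and Smyd1 at the 16-cell stage. At the 32-cell stage, with 42.9% of genes called, Smyd1 was higher in whole embryos by 3.47 (SE 1.36, limma adjusted p = 0.0406), and the call was lost without any 1 of the 3 whole embryos (adjusted p between 0.0873 and 0.115). For no member did a step between stages differ between whole and dissociated embryos at a limma adjusted p below 0.05 (lowest 0.136), where 6.41%, 0.00%, 0.00% and 14.1% of all genes were called at the steps from the 2- to the 4-, the 4- to the 8-, the 8- to the 16- and the 16- to the 32-cell stage. Of these 20 tests, 3 had an unadjusted p below 0.05. The largest difference was that of Smyd4 from the 2- to the 4-cell stage, which was 2.56 in whole and −4.99 in dissociated embryos.

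Single late blastomeres showed which members occurred in the same cell. Of 52 single cells of the 16- and 32-cell stages, Smyd5 was detected in 52, Smyd2 in 50, Smyd3 in 48, Smyd4 in 27 and Smyd1 in 26. All 5 genes were detected in 13 cells, 4 in 24 cells, 3 in 12 cells and 2 in 3 cells. The 3 cells with 2 members all came from the 32-cell stage. Smyd1 and Smyd4, the 2 members detected in about as many cells as not, were found together in 14 cells, Smyd1 without Smyd4 in 12, Smyd4 without Smyd1 in 13 and neither in 13. The 4 single cells that lacked Smyd3 also lacked Smyd4, which was undetected in 25 of the 52 cells. All 4 were of the 32-cell stage, where cells without Smyd3 had a median control Ct of 18.3, against 18.1 in cells with it. A relation between Smyd3 and Smyd4 was not tested. The 2 cells without Smyd2 came from 1 embryo of the 32-cell stage.

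**Figure D3:**
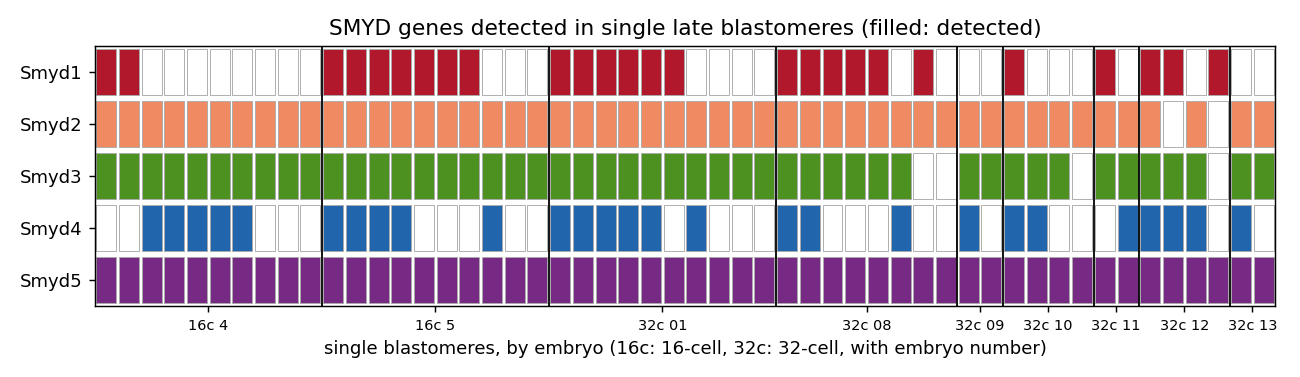
Detection of the 5 SMYD genes in each of 52 single blastomeres, 1 column per cell, with vertical lines between embryos and filled boxes for a Ct below 30. Smyd5 is filled in every cell, while Smyd1 and Smyd4 are filled in 26 and 27 cells in different combinations, and 16-cell embryo 4 holds 2 cells with Smyd1 where 16-cell embryo 5 holds 7.

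Detection of Smyd1 varied between embryos of 1 stage. It was found in 2 of 10 single cells of the first 16-cell embryo and in 7 of 10 of the second, with median control Ct values of 16.1 and 16.0. Smyd4 was found in 5 of 10 cells of each. At the 32-cell stage Smyd1 was found in 6 of 10 and 6 of 8 single cells of the 2 embryos with most cells, and in none of 2 cells in each of 2 other embryos. Cells with and without Smyd1 had a median control Ct of 16.0 against 16.1 in 16-cell embryos and 17.7 against 18.3 in 32-cell embryos. Where Smyd1 was detected in a single cell, its Ct lay between 17.3 and 23.2, and the highest Ct at which it was detected in any sample of the 8 stages was 23.8. In cells with and without Smyd1 the median levels were −2.67 and −2.60 for Smyd2 and 0.92 and 1.07 for Smyd5. Small groups of blastomeres held Smyd1 more often by count at the 32-cell stage (13 of 18 groups, against 17 of 32 single cells) and Smyd4 likewise (16 of 18 against 17 of 32). At the 16-cell stage Smyd1 was found in 3 of 6 groups, against 9 of 20 single cells, and Smyd4 in 3 of 6 against 10 of 20. Cells of 1 embryo are not independent, and these counts are descriptions.

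Sister blastomeres of 8-cell embryos gave the spread within an embryo for the members detected in all of them. Smyd5 had an SD of 0.453, 0.478 and 0.305 among 8, 8 and 5 sisters, below the median SD of all genes detected in every sister of the same embryo (0.576, 0.550 and 0.517). Smyd2 had an SD of 0.693, 0.834 and 1.36, above those medians. Over the 3 embryos, the SD within embryos was 0.435 for Smyd5 and 0.932 for Smyd2, while the SD of the embryo means was 0.676 for Smyd5 and 0.336 for Smyd2. Smyd3 was detected in 7 of 8, 4 of 8 and 2 of 5 sisters, Smyd4 in 2, 0 and 2, and Smyd1 in 3, 1 and 0.

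The relation to cell fate was tested with a lineage score, the mean of 12 inner cell mass genes minus the mean of 8 trophectoderm genes. The study chose these sets on the same samples. For each gene the slope on the score was fitted within each of the 9 late embryos and the slopes were tested against 0 with limma. None of the 5 SMYD genes was called, against 29.5% of all genes, and 1 of 5 (Smyd5) had an unadjusted limma p below 0.05. The slope of Smyd5 was 0.05 per unit of score (SE 0.02, limma adjusted p = 0.0722) and was positive in 6 of 9 embryos, from −0.12 to 0.13. With embryos weighted equally it was 0.03 (adjusted p = 0.602). Pooled over samples, which share embryos and control genes, Spearman's rho of Smyd5 with the score was 0.44 over 76 samples and 0.48 over 52 single cells, given as a description. In the 2 embryos of the 16-cell stage the slope of Smyd5 was 0.09 and 0.13. Their joint slope of 0.12 (SE 0.03) was called (limma adjusted p = 0.0319, with 11.5% of all genes called in these embryos). The slope over the 32-cell embryos was 0.03 (SE 0.02), and the difference between the stages was not called (0.09, SE 0.03, limma adjusted p = 0.238, with 0.641% of genes called). Smyd1 had a slope of −0.18 (SE 0.09, limma adjusted p = 0.186), positive in 4 of 9 embryos. Smyd2, Smyd3 and Smyd4 had slopes of −0.02, −0.01 and 0.03. One isolated inner cell mass group held Smyd1 at a Ct of 19.1 and Smyd5 at 11.6, and one trophectoderm group held Smyd1 at 18.2 and Smyd5 at 13.3. Their levels relative to the control genes were −6.17 and −4.27 for Smyd1 and 1.35 and 0.62 for Smyd5, with no replicates.

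**Figure D4:**
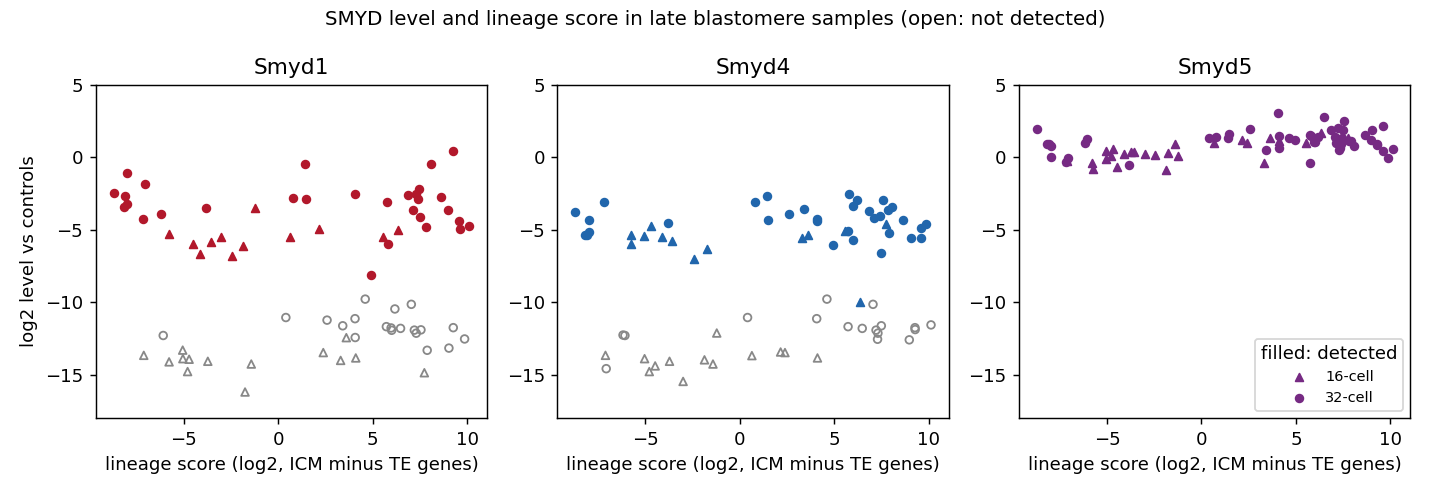
Level of Smyd1, Smyd4 and Smyd5 (log2, relative to 3 control genes) against the lineage score of the same sample in the 76 blastomere samples of the 16-cell (triangles) and 32-cell (circles) stages, with open symbols for undetected genes. Detected and undetected Smyd1 samples occur at both low and high scores, and Smyd5 spans a narrow range from −0.87 to 3.05.

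RNA of ESCs, the cultured counterpart of the inner cell mass, was measured at inputs from 25 to 800 pg. Smyd1 stayed at a Ct of 30 in all 10 samples, including 4 at 200 pg and 1 at 800 pg, although the control genes of these samples came up at Ct values between 13.8 and 19.5. Smyd2, Smyd3 and Smyd5 were detected in all 10, and Smyd4 in 9, with the sample of 25 pg as the exception. At 200 pg the Ct was 16.2 ± 0.347 for Smyd2, 15.7 ± 0.207 for Smyd3, 18.6 ± 0.188 for Smyd4 and 13.7 ± 0.376 for Smyd5 (SD, n = 4). These are repeat samples of a standard RNA, so the SD is technical. The 3 samples of the series from 32 to 800 pg lay later at like inputs than the other series, with Smyd5 at 16.10 for 160 pg and 15.19 for 100 pg of the other, so slopes were taken within a series. Over 25 to 200 pg, the Ct changed by −1.01 per doubling of input for Smyd2, −0.80 for Smyd3 and −1.18 for Smyd5, and by −1.13 for the controls. Over the 3 detected inputs of Smyd4, the value was −0.41. In the series from 32 to 800 pg it was −1.15 for Smyd2, −1.41 for Smyd3, −1.11 for Smyd4, −0.97 for Smyd5 and −1.12 for the controls, so the order of the genes differed between the series. Relative to the control genes, the ESC levels at 200 pg lay between −2.45 and −2.03 for Smyd2, −1.74 and −1.56 for Smyd3, −4.85 and −4.30 for Smyd4 and −0.11 and 1.00 for Smyd5.

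**Figure D5:**
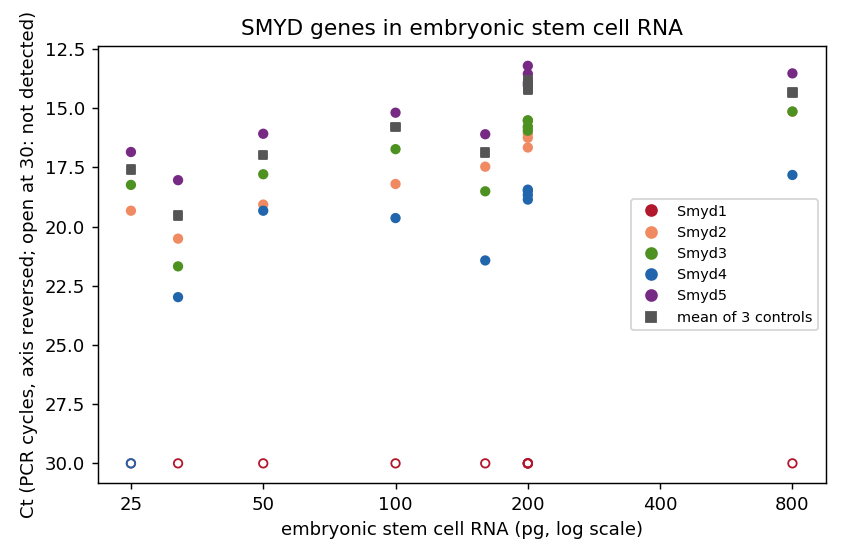
Ct of the SMYD genes and mean Ct of the 3 control genes in 10 samples of ESC RNA against the input in pg, on a log axis and with the Ct axis reversed so that more transcript is higher. Open points at 30 were not detected, which holds for Smyd1 at every input and for Smyd4 at 25 pg.

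The 3 genes whose stage pattern was most like that of each member were taken by Pearson r over the 58 oocyte and embryo means, and Scmh1 and Jmjd8 each occurred for a pair of members. These r describe values that share the control genes and the stages and carry no test. For Smyd3 they were Nsd1, a histone H3 lysine methyltransferase (0.92), Dppa1 (0.87) and the Polycomb gene Scmh1 (0.85). Smyd4 was closest to the SET-domain gene Setd6 (0.79), Jmjd8 (0.78) and Scmh1 (0.75), and Smyd2 to the growth factor receptor gene Fgfr2 (0.74), Dmap1 (0.73) and Jmjd8 (0.71). Smyd5 was closest to the transcription factor gene Tead4 (0.90), Mtf2 (0.88) and the deacetylase gene Hdac1 (0.87). Smyd1 was closest to the keratin gene Krt19 (0.81) and the transcription factor genes Nanog (0.80) and Tbx3 (0.80). It was undetected in all MII oocytes and zygotes and in most samples up to the 8-cell stage, where its values measure the control genes. Within the family the highest r was that of Smyd3 with Smyd4 (0.70), and Smyd4 had −0.66 with Smyd5.

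Other SET-domain methyltransferase genes, 31 on the panel, were described in the same fits. From zygote to 2-cell stage 7 of the 31 rose and 13 fell, with a median difference of 0.04, beside 46 rising and 61 falling of all genes tested with a median of −0.33. The largest falls were those of Prdm6 (−6.43) and Suv39h2 (−2.77), and the largest rises those of Suv39h1 (10.30) and Prdm14 (7.51). From the 4- to the 8-cell stage 16 fell and none rose, with Mll1 (−3.39) and Suv39h2 (−3.21) first, where Smyd3 fell and Smyd2 rose, beside 21 rising and 56 falling of all genes. At the step to the 16-cell stage 7 rose and 1 fell, led by Mll1 (9.11) and Suv420h2 (4.28), with Setdb2 at −1.37, beside 31 rising and 13 falling of all genes. No gene of the list was called between MII oocyte and zygote, with 2 of 31 at an unadjusted limma p below 0.05. From MII oocytes to the late stages, 10 of the 31 rose and 16 fell, with a median of −0.56 beside 59 rising, 73 falling and a median of −0.35 over all genes, and Smyd3 and Smyd4 fell in the same comparison as Suv39h2 (−6.99) and Prdm6 (−7.75).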

How the data were processed

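Quantitative PCR of 192 assays was run on microfluidic chips after reverse transcription and preamplification. The authors deposited non-normalized values of 189 samples, which are cycle thresholds (Ct, a score in PCR cycles, with 30 for undetected genes). The authors also deposited a normalized log2 table, which the values show to be relative to Gapdh, Hspa8 and Lmnb1 (largest difference 1.03e-08), all 3 of which are marked as failing quality control there. The methods name Hnrnpr, Ssu72 and Ube2e1, so levels were computed from the Ct as 30 minus Ct, relative to these 3 genes, and the deposited log2 table was an alternative. The 156 assays marked as passed were used in 168 samples, averaged to 58 oocytes or embryos, and 3 samples of the main stages were left out. Groups came from the labels, and 11 blastomeres with no embryo named were averaged as 1.

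Stages were compared with limma 3.58.1 in R 4.3.3, with Benjamini-Hochberg adjustment over 156 genes and a threshold of 0.05. Stages shared 1 fit, and whole embryos were fitted separately on 30 minus Ct. The number of genes detected and the control Ct stand for depth, which qPCR does not give. The genes named are the 5 members, the 3 genes most like each in stage pattern, and the 2 largest called changes in each direction among 31 other SET-domain genes. The members and lists were chosen with earlier results of these data known. Alternatives covered the control genes, undetected values, replicate units, kinds of sample and single replicates left out. Promoter sequences came from RefSeq, GRCm38.p6.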

Additional observations from a re-analysis of the deposited data

Results flagged for a closer look

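The mean of Smyd2 in 1 of the 7 embryos of the 32-cell stage was −5.55, far below the other embryos of its stage. Smyd2 was undetected in 2 of the 4 single blastomeres of that embryo, the only late samples without it. Groups of 4 to 10 replicates were examined this way in 19 cases, and chance alone flags about 1 in 20 groups.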

How the results depend on the processing

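The number of SMYD genes called from zygote to 2-cell stage was 5, and 3 without normalization. From the 2- to the 4-cell stage it was 1, and 0 with values below −10 set to −10 or with single cells only, and 2 with the median of always detected genes, every sample as a replicate, the replicate block or dissociated blastomeres only. From the 8- to the 16-cell stage it was 2, and 0 without normalization, 1 with median normalization, the deposited normalized table or the embryo as a random block, and 1 to 2 when single replicates were left out, with 1 without 16-cell embryo 5. From the 16- to the 32-cell stage it was 0, and 1 with the floor of −10, with Ssu72 left out of the controls, with the replicate block, with dissociated blastomeres only or with undetected genes at the highest detected Ct, 2 with the embryo as a random block, and 3 with every sample as a replicate.

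Per whole embryo, the number called with the 3 control genes was 2 in place of 0 from the 4- to the 8-cell stage, 3 in place of 5 from the 8- to the 16-cell stage, and 0 in place of 1 from the 16- to the 32-cell stage. Leaving out single whole embryos gave 0 to 2, 0 to 1 and 1 to 2 calls at the steps from the 2- to the 4-, the 4- to the 8- and the 16- to the 32-cell stage. The count between whole and dissociated embryos was 0 to 2 at the 2-cell stage, and at the 32-cell stage it was 0 in place of 1 without any one of the 3 whole embryos. The difference of Smyd5 from MII oocytes to late stages changed sign without normalization (−0.44), and the cause was not tested. That of Smyd1 per whole embryo from zygote to 2-cell stage was 0.0 without 2-cell whole embryo 1, the only whole 2-cell embryo in which it was detected. Of the values of single genes, 296 kept direction and side of the threshold, 36 lost the call and 9 gained it. The other 2 are the Smyd5 and Smyd1 values just given, which did not keep their sign.

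Replicate numbers did not pair the samples: over 411 pairs with the same number the median correlation of deviations was −0.00504, and 80 lay above 0.1. The fit with the replicate block took every sample as a replicate, so that blastomeres of 1 embryo counted as independent. Its Smyd1 difference from the 16- to the 32-cell stage was 4.3 (limma adjusted p = 1.06e-05). Over embryo means the difference was 3.31 (limma adjusted p = 0.0694). Undetected transcripts limit what can be said of Smyd1 and Smyd4 in samples with little template. The 16-cell stage rests on 2 dissociated embryos and the 3-cell stage on 3, and whole embryos on 3 per stage.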
